A study of Homo sapiens with 6 samples.

Results

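Transcript levels of 10 genes of the interleukin-6 cytokine family were examined after DAZAP1 knockdown in Cal27 cells, which derive from a human squamous carcinoma of the mouth. The genes were found as the rows of the deposited count table whose symbol is IL11, IL6, LIF, CLCF1, IL6ST, IL6R, LIFR, OSMR, STAT3 or SOCS3, which gave 10 of the 30947 genes in the table. They cover ligands, receptor chains, the transcription factor STAT3 and its feedback inhibitor SOCS3. The knockdown group (KD) held 3 libraries of Cal27 cells that received lentivirus against DAZAP1, which encodes an hnRNP-type protein that binds RNA and acts in splicing and translation. The control group (NC) held 3 libraries of Cal27 cells given a negative control, which the labels call both an empty vector and a control sequence. All cells were grown in high-glucose medium with serum. As far as the labels tell, the knockdown rests on 1 construct in 1 cell line, and nothing says that the libraries of a group came from separate cultures, so the p-values reflect variation among these 6 libraries and possibly no more than technical variation. In such bulk RNA, fewer cells of a type and less RNA per cell cannot be told apart.

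Cytokines of this family signal through the shared chain gp130, the product of IL6ST. The ligands differ in the chains they use beside it: IL-6 binds the IL-6 receptor, IL-11 its own alpha receptor and LIF the LIF receptor, while oncostatin M binds gp130 and recruits the OSM or LIF receptor. CLCF1 acts through the CNTF receptor, the LIF receptor and gp130. JAK kinases on these receptors then phosphorylate STAT3, which induces SOCS3, and SOCS3 shuts the receptor complex down. In squamous carcinomas the pathway is best known for STAT3 activity in the tumour cells and for cytokines that tumour cells release.

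The libraries held 16333542 to 17815862 counts in the KD group and 18547236 to 18955230 counts in the NC group. DAZAP1 had 67.5 to 77.8 CPM in the KD libraries, against 256.9 to 277.9 CPM in the NC libraries, which went with the labels (CPM is the count relative to the TMM-scaled total of the genes tested). Of 12 squamous epithelial markers, all present in both groups, edgeR called 7 higher and 3 lower in KD, and the other 2 missed the threshold. The shares over all genes tested were 26.9% higher and 27.4% lower. KRT5 had 2147 ± 17.4 CPM in KD and 1506 ± 34.1 CPM in NC libraries, and SFN 440.9 ± 7.70 CPM in KD and 847.6 ± 18.1 CPM in NC libraries (SD, n = 3 each), while EPCAM and PERP fell by 0.09 and 0.15 on the log2 scale. Markers of other cell types moved with the groups. The summed CPM of 8 leukocyte markers was 8.61 to 10.9 in KD and 11.2 to 15.5 in NC libraries. That of 6 fibroblast markers was 18.7 to 19.6 in KD and 10.3 to 13.7 in NC libraries, and that of 5 endothelial markers 46.7 to 52.0 in KD and 14.2 to 16.7 in NC libraries. Single genes made up most of these sums: CSF1R, COL1A1 and CDH5. Some markers of these types were at or near 0. PTPRC had at most 1 count in a KD and 2 in an NC library. FAP had at most 2 in a KD and 3 in an NC library, and PECAM1 at most 10 in a KD and 4 in an NC library. Others were clearly present: CDH5 had 739 to 885 counts in KD and 235 to 287 counts in NC libraries. COL1A1 had 237 to 268 counts in KD and 141 to 209 counts in NC libraries. CD14 had 31 to 44 counts in KD and 11 to 22 in NC libraries, so it was higher in KD although the leukocyte sum was lower. The part of these markers in the results was not tested.

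The 10 genes were chosen with results of the comparison between KD and NC known. Their differences are therefore given as a description, as log2 fold changes (KD over NC) with an SE and with no p-value for a single member. Both come from the edgeR quasi-likelihood fit over all genes. The SE was derived as the absolute log2 fold change over the square root of the F statistic of edgeR's test. All 10 passed the filter on low counts and were among the 15374 genes tested. With the call set at 0.05 for the p-value of edgeR's quasi-likelihood test, adjusted by Benjamini-Hochberg over every gene in the fit, 2 members were higher and 7 lower in KD, and 1 did not pass. Of all genes tested, 26.9% were higher and 27.4% lower by the same rule. The CPM values of KD and NC did not overlap for 9 of the 10 members, against 58.9% of all genes tested. Nothing is read from these shares, since the members were picked on this contrast. The median log2 fold change was -0.21 over the members and 0.00 over all genes.

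The promoters of IL11, IL6 and IL6R are shown because they belong to the members with the largest differences for which a RefSeq window was at hand (GRCh38.p14, 250 bases before to 50 after an annotated start). Capitals mark matches to 4 motifs searched on both strands, AP-1 (TGANTCA), CRE (TGACGTCA), STAT (TTCNNNGAA) and the NF-kB consensus, and to the TATA box (TATANA, given strand only). The windows lie at chr19:55370414-55370713 (minus strand, IL11), chr7:22726950-22727249 (plus strand, IL6) and chr1:154405093-154405392 (plus strand, IL6R). Each spans the upstream flank and the first 50 bases of an annotated transcript.
IL11: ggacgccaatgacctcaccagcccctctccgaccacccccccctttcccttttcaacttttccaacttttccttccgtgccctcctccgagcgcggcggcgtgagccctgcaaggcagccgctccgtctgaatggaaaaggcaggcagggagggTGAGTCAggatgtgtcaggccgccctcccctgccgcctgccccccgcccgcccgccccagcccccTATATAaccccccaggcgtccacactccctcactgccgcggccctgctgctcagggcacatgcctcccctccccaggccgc
IL6: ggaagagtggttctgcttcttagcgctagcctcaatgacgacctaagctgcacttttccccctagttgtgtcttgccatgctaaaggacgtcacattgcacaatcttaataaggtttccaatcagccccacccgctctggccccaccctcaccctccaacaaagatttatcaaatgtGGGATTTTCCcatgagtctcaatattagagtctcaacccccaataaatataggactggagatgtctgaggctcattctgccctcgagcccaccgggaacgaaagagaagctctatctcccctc
IL6R: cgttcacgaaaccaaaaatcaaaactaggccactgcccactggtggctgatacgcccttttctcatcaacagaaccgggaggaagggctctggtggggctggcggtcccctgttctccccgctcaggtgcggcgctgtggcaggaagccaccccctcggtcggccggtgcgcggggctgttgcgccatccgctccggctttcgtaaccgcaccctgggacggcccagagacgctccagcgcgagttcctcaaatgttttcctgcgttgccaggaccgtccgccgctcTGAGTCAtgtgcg
The IL11 window holds an AP-1 match 96 bases before the start and a TATA box match 31 bases before it. The IL6 window holds an NF-kB match 73 bases before the start, and the IL6R window an AP-1 match at base 38 after it. Windows were found for 8 of the 10 members, 11 in all, and AP-1 matches for 3 members (IL11, IL6R and OSMR). STAT matches were in 2 windows of LIFR, NF-kB matches in IL6 and IL6ST, and TATA box matches in IL11 and LIFR. No member window held the CRE letters. Among 34796 promoter windows of the same length, 7.73% held AP-1, 7.67% STAT, 11.3% NF-kB, 14.1% TATA box and 1.84% CRE matches. These shares are per window, whereas the counts above are per member and some members have several windows, so they are unlike units. A match describes letters and not a site in use.

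The 3′ UTRs of the 4 ligand genes carry copies of the AU-rich pentamer ATTTA, a sequence that many short-lived cytokine mRNAs share. Some copies overlap in IL11 and CLCF1, while those of IL6 and LIF are all separate. For each gene the 30-base stretch with the most pentamers is shown, with the pentamers in capitals. Where several tied, as in IL6, it is the first of them. The stretches were taken from GENCODE release 29 transcripts (GRCh38). They lie at chr19:55365943-55365972 (minus strand, IL11), chr7:22731704-22731733 (plus strand, IL6), chr22:30240522-30240551 (minus strand, LIF) and chr11:67364229-67364258 (minus strand, CLCF1).
IL11: ccagatcttATTTATTTATTTAtttcagta
IL6: tatttttaATTTAttaatATTTAaatatgt
LIF: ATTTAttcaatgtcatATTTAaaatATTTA
CLCF1: atATTTATTTAtttggagatgttATTTAtt
IL11 held 9 pentamers in a 3′ UTR of 1618 bases and IL6 held 6 in 429 bases, which was the highest density of the 10 members at 14 per kb. LIF held 7 in 3204 bases and CLCF1 4 in 968 bases, all 4 between bases 880 and 915. Density ran from 1.47 per kb in IL6R and 1.65 per kb in STAT3 upward, and 8 of 10 members lay above the median of 1.69 per kb over 11668 genes tested that have a 3′ UTR of at least 100 bases. The pentamer was present in 10 of 10 members and in 71.6% of those genes. The heptamer TATTTAT, which contains the pentamer, was found in 8 of 10 members and in 33.2% of those genes. Presence depends on length, and the shares were not adjusted for it. The median 3′ UTR of those genes had 1101 bases, while those of the members had 429 (IL6) to 6632 bases (LIFR). IL6ST and LIFR, with the longest, held 1 heptamer each. Nothing is therefore read from these shares. LIF, the ligand gene that was higher in KD, and the 3 ligand genes that were lower all carried both sequences.

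**Figure D1:**
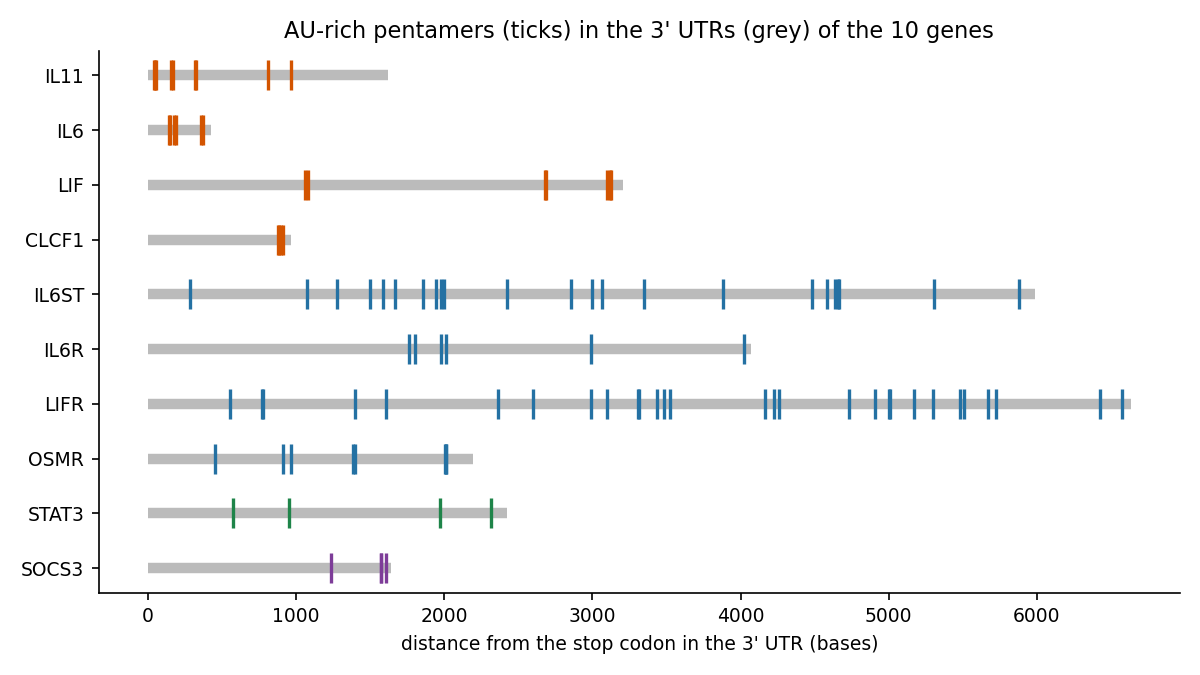
Position of each ATTTA pentamer (coloured tick) along the 3′ UTR (grey bar, bases from the stop codon) of the 10 genes, coloured by role: ligands orange, receptors blue, STAT3 green and SOCS3 purple. IL11 has 9 pentamers, most of them towards the stop codon, while the 4 of CLCF1 lie at the far end.

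Among the ligand genes, 3 were lower and 1 was higher in KD. IL11, which encodes a stromal and epithelial cytokine tied to fibrosis and tumour growth, had 89, 96 and 101 counts in KD libraries, against 685, 687 and 745 counts in NC libraries. In CPM these were 4.94, 5.61 and 6.12 in KD and 37.5, 36.7 and 39.9 in NC. Every KD library lay far below every NC library. IL11 (ENSG00000095752, chromosome 19, 55364382 to 55370463) thus stood at 14.6% of the control level, a log2 fold change of -2.78 ± 0.094 (SE), and 99.7% of the genes tested had a smaller absolute change.

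IL6, the founding cytokine of the family and an inducer of the acute phase response, had 12.8, 13.6 and 13.3 CPM in KD and 26.4, 28.2 and 25.8 CPM in NC libraries. The KD level was 49.3% of the control level, a log2 fold change of -1.02 ± 0.085 (SE). The groups were well apart, and the KD libraries lay closer together than the NC libraries. CLCF1, a neurotrophic and B cell stimulating ligand, had 11.3, 10.3 and 9.58 CPM in KD and 16.8, 15.03 and 16.3 CPM in NC libraries, a log2 fold change of -0.62 ± 0.102 (SE). The highest KD library was still below the lowest NC library.

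LIF moved the other way. This cytokine, known for keeping stem cells undifferentiated and for its release by carcinoma cells, had 152.5, 154.0 and 142.9 CPM in KD and 85.7, 83.8 and 85.7 CPM in NC libraries. The log2 fold change was 0.82 ± 0.037 (SE), 76.2% above the control level, and all KD libraries were above all NC libraries. In FPKM, a level per length, the ratio of LIF to IL11 was 21.4, 19.0 and 16.1 in KD libraries and 1.58, 1.58 and 1.49 in NC libraries. The ratio of LIF to IL6 in FPKM was 5.75 to 6.36 in KD and 1.59 to 1.77 in NC libraries. The summed CPM of the 4 ligand genes was 171.9 to 183.5 in KD and 163.7 to 167.7 in NC libraries. LIF made up 142.9 to 154.0 CPM of it in KD and 83.8 to 85.7 CPM in NC, so its part was larger in KD.

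**Figure D2:**
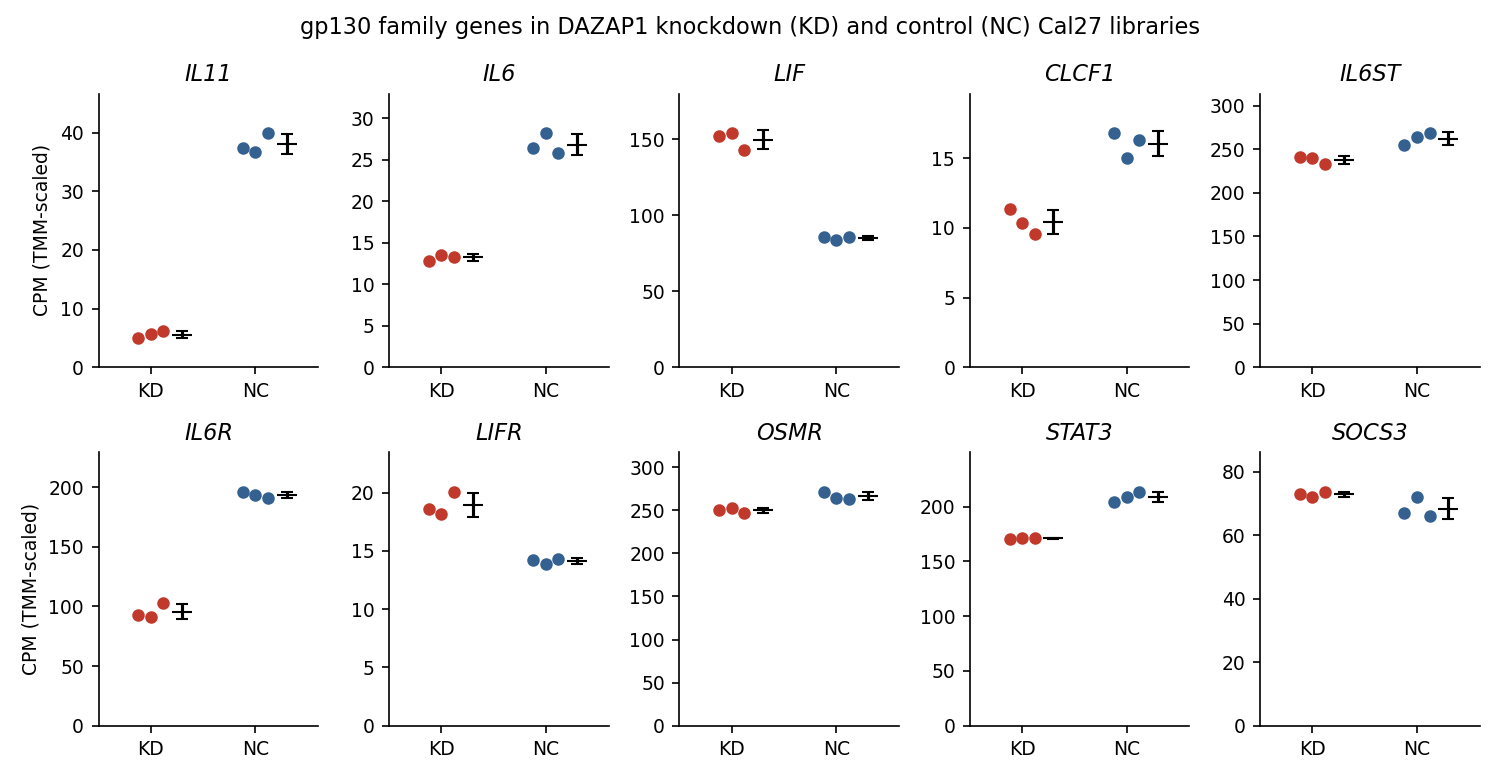
CPM (TMM-scaled, linear axis from 0) of each of the 10 genes in the 3 KD (red) and 3 NC (blue) libraries; the bar beside each group is the mean with the SD. IL11, IL6, CLCF1 and IL6R sit clearly lower in KD and LIF and LIFR higher, while SOCS3 overlaps.

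Of the receptor genes, IL6R differed most. It encodes the alpha chain that binds IL-6 and that is also shed from the cell surface. IL6R had 92.6, 91.3 and 103.0 CPM in KD and 196.2, 193.9 and 190.7 CPM in NC libraries, a log2 fold change of -1.02 ± 0.036 (SE). The KD libraries stood at 49.4% of the control level, nearly the same share as IL6, the gene of its ligand. LIFR, the signalling chain for LIF and, with gp130, for CLCF1, had 18.6, 18.2 and 20.1 CPM in KD and 14.2, 13.9 and 14.3 CPM in NC libraries. Its log2 fold change was 0.42 ± 0.091 (SE), with all KD libraries above all NC libraries.

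The shared chain and the oncostatin M chain differed little. IL6ST, the gene of gp130, had 241.5, 240.3 and 233.0 CPM in KD and 254.6, 264.0 and 268.5 CPM in NC libraries, a log2 fold change of -0.14 ± 0.028 (SE). OSMR had 250.7, 252.4 and 246.5 CPM in KD and 271.6, 264.2 and 263.3 CPM in NC libraries, a log2 fold change of -0.09 ± 0.027 (SE). The groups did not overlap in either gene, but 29.4% of all genes tested had a smaller absolute change than IL6ST and 19.8% a smaller one than OSMR. OSMR no longer passed the threshold with upper-quartile scaling (log2 -0.04), with library size as the only scaling (log2 -0.06) or in a limma fit of log2(FPKM + 1) (log2 -0.06). The ratio of IL6ST to IL6R in FPKM was 1.44 to 1.68 in KD and 0.828 to 0.898 in NC libraries, so it was higher in KD. Which transcript was more abundant depends on the fixed lengths behind the FPKM (10119 bp for IL6ST and 6454 bp for IL6R). These need not be the lengths of the transcripts present. Summed over the 4 receptor genes, CPM was 602.1 to 603.4 in KD and 736.0 to 736.8 in NC libraries. Most of this difference was IL6R, with a mean of 95.6 CPM in KD and 193.6 CPM in NC libraries, while LIFR was higher in KD.

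STAT3, the transcription factor that gp130 receptors activate, had 170.6, 171.3 and 171.0 CPM in KD and 204.2, 208.9 and 213.5 CPM in NC libraries. The log2 fold change was -0.29 ± 0.030 (SE), with every KD library below every NC library. The files measure STAT3 transcripts and not its phosphorylation. SOCS3, the feedback inhibitor that STAT3 induces and that blocks JAK kinases at gp130, had 73.1, 72.0 and 73.7 CPM in KD and 66.9, 72.1 and 66.1 CPM in NC libraries. The groups overlapped through 1 NC library, and at a log2 fold change of 0.09 ± 0.046 (SE) SOCS3 was the member that did not pass the threshold. It passed without NC replicate 2 (log2 0.13), with upper-quartile scaling (log2 0.14) and with library size only (log2 0.13).

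Levels of different genes were compared per length, in the FPKM the authors deposited. In KD libraries LIF was highest at 39.1 ± 1.61 FPKM, followed by OSMR at 35.2 ± 0.461, SOCS3 at 27.0 ± 0.291 and IL6ST at 23.8 ± 0.484 FPKM (SD, n = 3). STAT3 at 15.4 ± 0.037 and IL6R at 14.97 ± 0.988 FPKM overlapped between libraries in KD and had no clear order. IL6 (6.46 ± 0.179 FPKM), CLCF1 (5.73 ± 0.485), IL11 (2.10 ± 0.222) and LIFR (1.57 ± 0.082) came last in KD. In NC libraries OSMR was highest at 36.6 ± 0.616 FPKM, then IL6R at 29.6 ± 0.418 FPKM, while IL6ST (25.6 ± 0.695) and SOCS3 (24.7 ± 1.18) overlapped (SD, n = 3). LIF was only the fifth of the 10 genes in NC at 21.7 ± 0.273 FPKM. STAT3 (18.4 ± 0.413 FPKM), IL11 (13.5 to 14.7 over the libraries), IL6 (12.8 ± 0.590), CLCF1 (8.61 ± 0.484) and LIFR (1.15 ± 0.019) followed in NC. LIFR was thus lowest in both groups, and the other neighbours in each order did not overlap between libraries.

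**Figure D3:**
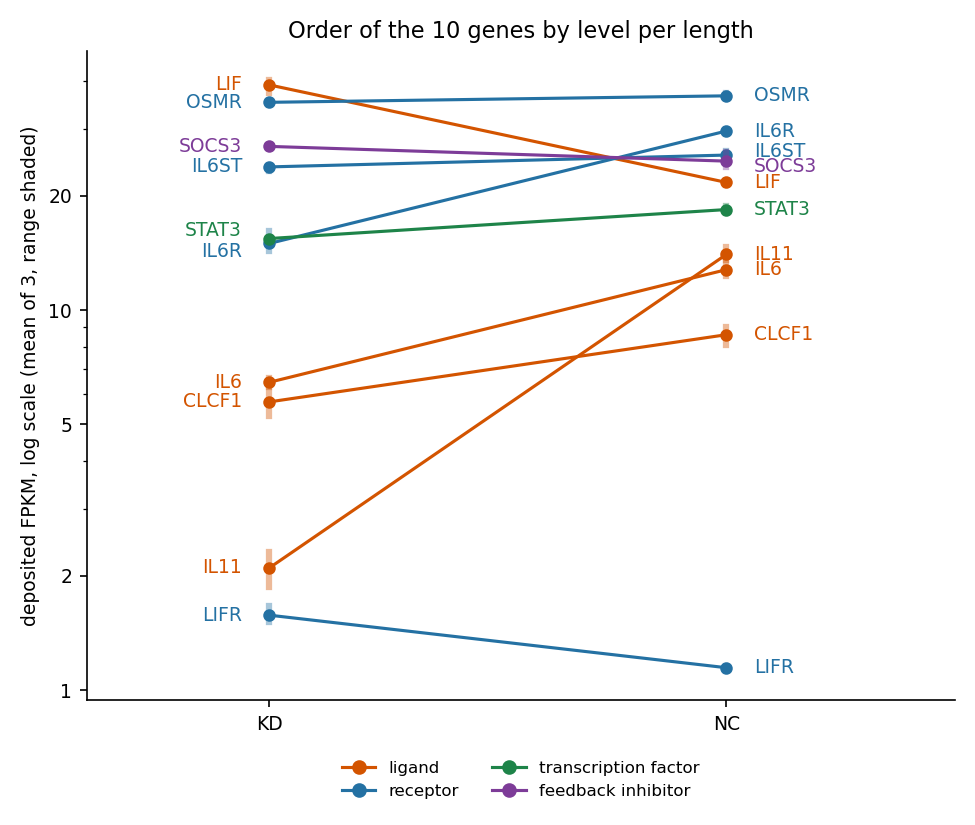
Mean deposited FPKM (log axis) of the 10 genes in KD (left) and NC (right), with the range over 3 libraries as a shaded bar. LIF holds the first place in KD and the fifth in NC, IL6R the sixth in KD and the second in NC, and IL11 the ninth in KD and the seventh in NC.

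Other genes of the family, not members, were measured in the same fit, and their adjusted p-values come from the same edgeR quasi-likelihood test over all genes. The gene lists were drawn up with results of these data known, and IL27, IL31 and CNTFR are not analysed here. Beside the counts of each list stand the shares over all genes tested, 26.9% higher and 27.4% lower in KD. Of 7 other ligand genes 5 were in the table and 3 had enough counts to test, of which 1 rose, 1 fell and 1 did not pass. EBI3, a subunit of interleukin-27 and interleukin-35, rose, with 27, 29 and 26 counts in KD and 5, 11 and 5 counts in NC libraries (log2 2.05 ± 0.409 SE, adjusted p = 1.47e-05, edgeR quasi-likelihood test). CTF1, the gene of cardiotrophin 1, had 11, 18 and 9 counts in KD and 13, 28 and 34 counts in NC libraries. It passed narrowly as lower (log2 -0.86, adjusted p = 0.0499, edgeR) although the groups overlapped, and it did not pass with the replicate number as a block (adjusted p = 0.0663), with 0 to 1 of the other ligands lower when 1 library was left out. Without KD replicate 1 or 3 or NC replicate 2 or 3 its adjusted p was 0.173, 0.189, 0.131 or 0.277 (edgeR). CNTF did not pass (adjusted p = 0.354, edgeR), with 14, 8 and 3 counts in KD and 13, 13 and 13 counts in NC libraries. OSM, the gene of the ligand of OSMR, had 4, 0 and 1 counts in KD and 0, 2 and 0 counts in NC libraries. It was too low to test, so no difference could be detected at this depth.

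Among the other receptor chains, 1 rose, 1 fell and 1 did not pass. IL27RA, the receptor chain that pairs with gp130 for interleukin-27, rose, with 386, 441 and 395 counts in KD and 177, 162 and 131 counts in NC libraries (log2 1.49 ± 0.102 SE, adjusted p = 2.06e-21, edgeR). IL31RA, which pairs with OSMR for interleukin-31, fell, with 172, 151 and 161 counts in KD and 347, 360 and 342 counts in NC libraries (log2 -1.01 ± 0.099 SE, adjusted p = 2.59e-14, edgeR). In both genes every KD library lay on 1 side of every NC library. IL31RA and IL6ST are neighbours on chromosome 5, with 12.2 kb between them, and LIFR and OSMR lie 238 kb apart on the same chromosome. IL31RA and IL6ST were both lower, at -1.01 and -0.14 on the log2 scale, and LIFR and OSMR had opposite signs, at 0.42 and -0.09. IL11RA, the receptor of IL-11, was low in both groups, with 26, 25 and 20 counts in KD and 28, 25 and 18 counts in NC libraries, and did not pass (adjusted p = 0.811, edgeR).

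**Figure D4:**
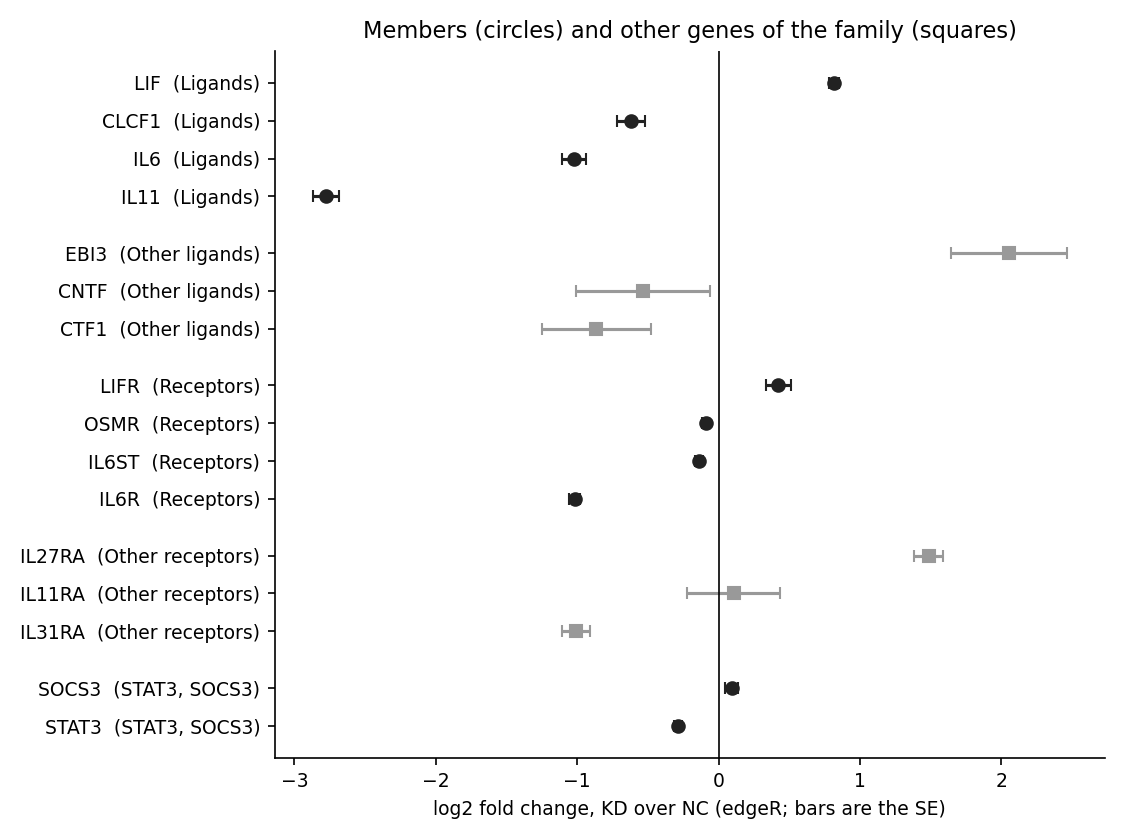
Log2 fold change (KD over NC, edgeR) with its SE for the 10 members (black circles) and 6 other genes of the family that could be tested (grey squares), grouped by role. Values right of 0 are higher in KD. LIF, LIFR, EBI3, IL27RA, SOCS3 and IL11RA stand right of 0, and the other genes left of it. SOCS3, IL11RA and CNTF did not pass the threshold.

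Genes that carry the signal from the receptor were mixed. Of 10 tested kinases, STATs and adaptors, 5 rose, 2 fell and 3 did not pass, with a median log2 fold change of 0.11. STAT5A, a STAT best known from cytokine and growth hormone signalling, rose to 29.9 ± 1.37 CPM in KD, against 12.99 ± 0.403 CPM in NC (SD, n = 3 each; log2 1.20), while STAT5B fell to 46.0 ± 0.302 CPM in KD, against 61.5 ± 2.79 CPM in NC (log2 -0.42). The RAS exchange factor SOS1 rose by 0.47 on the log2 scale. Of 12 negative regulators other than SOCS3, 1 rose, 6 fell and 5 did not pass (median log2 -0.07). SOCS2 fell to 4.23 ± 0.434 CPM in KD, against 14.1 ± 0.824 CPM in NC (log2 -1.73), SOCS1 fell by 0.73 and SOCS4 by 0.19 on the log2 scale, and SOCS7 rose by 0.41.

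Genes known as STAT3 targets went both ways, where 9 of 22 tested genes rose, 8 fell and 5 did not pass (median log2 -0.03). FGA, FGG, CRP, LBP, HAMP and A2M are not analysed here. The 4 with the smallest adjusted p all rose. SAA1, an acute phase protein that shares much of its sequence with SAA2 so that reads may be split between them, had 130.3 ± 1.85 CPM in KD and 49.4 ± 2.86 CPM in NC (SD, n = 3 each; log2 1.40). The adhesion molecule ICAM1 (log2 0.51), the hypoxia factor HIF1A (0.41) and the transcription factor CEBPD (1.44) were the others. PIM1, a kinase gene picked after its value was seen, had 17.1 ± 0.186 CPM in KD and 34.4 ± 1.21 CPM in NC (log2 -1.01, adjusted p = 6.91e-20, edgeR).

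Of 21 genes tied to the control of IL6, IL11 or LIF, 5 rose, 10 fell and 6 did not pass (median log2 -0.19, against 0.00 over all genes). They are transcription factors, SMAD proteins and cytokines, and not all are inducers. ATF3 (log2 -0.67, called lower) and SMAD7 (log2 0.25, did not pass) are among them. Of all genes tested, 26.9% rose and 27.4% fell by the same rule. CEBPB, CEBPD, FOS and JUNB stand in this list and in that of STAT3 targets. The AP-1 subunit JUN fell to 144.9 ± 0.910 CPM in KD, against 279.8 ± 5.26 CPM in NC (SD, n = 3 each; log2 -0.95), and the inflammatory cytokine IL1B by 0.35 on the log2 scale. TGFB2, a ligand of the TGF-beta pathway, rose to 67.3 ± 1.34 CPM in KD, against 27.3 ± 0.470 CPM in NC (log2 1.30), and CEBPD rose as given above. Of 12 proteins known to act on the stability or translation of cytokine mRNAs, 0 rose, 6 fell and 6 did not pass (median log2 -0.11, edgeR). The count of those higher was also 0 with DESeq2 and voom and 0 at an unadjusted p under 0.05. The decay factor ZFP36L1 fell to 273.3 ± 5.78 CPM in KD, against 356.3 ± 1.22 CPM in NC (log2 -0.38), and ZFP36L2 fell by 0.80, the stabilising protein ELAVL1 by 0.16 and RC3H2 by 0.12 on the log2 scale. With upper-quartile scaling 2 of the 12 rose and 3 fell, and RC3H2 lost its call.

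Of 4 listed genes of receptor shedding, 3 rose and 1 fell, against 26.9% higher and 27.4% lower over all genes tested. The list is short and was drawn up with results known. ADAM10 and ADAM17, the proteases that cut the IL-6 receptor from the cell surface, had 340.3 ± 3.42 and 119.3 ± 3.25 CPM in KD, against 195.6 ± 1.86 and 74.7 ± 1.86 CPM in NC (SD, n = 3 each). Their log2 fold changes were 0.80 ± 0.027 and 0.68 ± 0.040 (SE; adjusted p = 5.65e-39 and adjusted p = 6.74e-25, edgeR). RHBDF2, which carries ADAM17 to the cell surface, rose by 0.31 on the log2 scale, and its relative RHBDF1 fell by 0.18, a call that was lost with DESeq2 (adjusted p = 0.0694) and without KD replicate 1 or 2 or NC replicate 2 (adjusted p = 0.113, 0.0565 or 0.075, edgeR). In the same libraries IL6R was lower, as given above. The files hold no measure of shed protein.

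**Figure D5:**
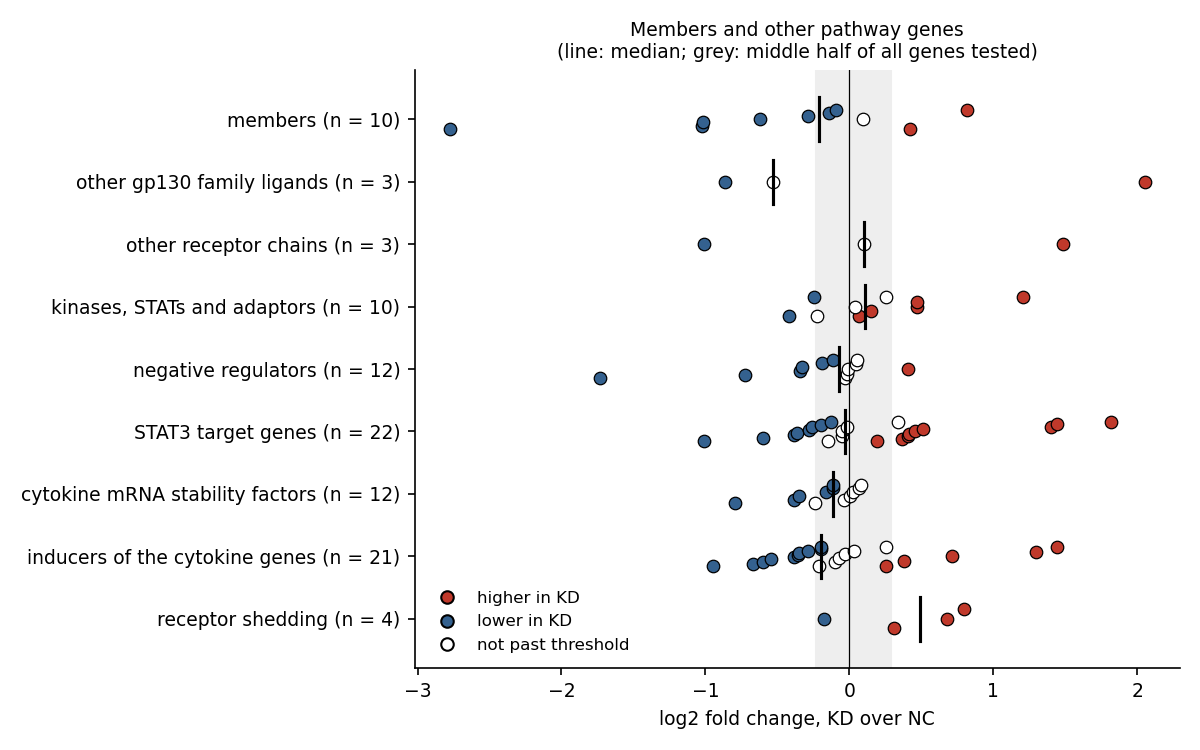
Log2 fold change (KD over NC) of the 10 members and of the tested genes of 8 pathway lists, 1 point per gene, red where higher, blue where lower and white where the gene did not pass the threshold; the black line is the list's median and the grey band the interquartile range of all genes tested. The median is 0.49 for receptor shedding. That of the 3 other ligands, -0.53, is the value of CNTF, which ran from -1.09 to -0.16 when 1 library was left out.

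The 5 genes with values most like those of IL11 across the 6 libraries, by Euclidean distance of log2 CPM centred on each gene's mean, were ENTPD3 (distance 0.355), GPAT3 (0.495), LCE3D (0.613), IL1RL1 (0.629) and ABCG2 (0.747). ENTPD3, an ectonucleotidase, had 98, 133 and 116 counts in KD and 708, 762 and 754 counts in NC libraries, close to the counts of IL11. LCE3D had 2 to 4 counts in KD and 27 to 36 in NC libraries, so its place near IL11 is imprecise. The 6 points of each gene fall into the same 2 groups of libraries, so this likeness mostly restates a similar fold change.

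Several members share exon bases with a gene on the other strand, and since the strand setting of the counting is not given in the sources used here, reads of such pairs cannot be told apart. IL6 shares 428 bases with the antisense gene AC073072.1 (0.576 CPM in KD and 1.995 CPM in NC, against 13.2 and 26.8 CPM for IL6) and 46 with STEAP1B. OSMR shares 229 bases with RICTOR (66.1 CPM in KD and 63.7 CPM in NC), LIF 175 with AC004264.1 (1.77 CPM in KD and 1.40 CPM in NC) and 92 with LIF-AS1, LIFR 629 with LIFR-AS1, and IL6ST 797 with AC008914.1. CLCF1 shares 61 bases with AP003419.1 on the same strand. IL11, IL6R, STAT3 and SOCS3 share no exon bases with another annotated gene of GENCODE release 29. The values of IL6, LIF, CLCF1, IL6ST, LIFR and OSMR are uncertain as far as reads were shared in this way.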

How the data were processed

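Cal27 cells were lysed in TRIzol, and libraries of total RNA followed Illumina's standard steps, per the labels' protocols. The authors deposited whole-number counts and FPKM for 30947 genes in 6 libraries. The submitters' processing notes name GRCh38.p13 and Bowtie; no source used here gives the counter, its annotation or the strand setting. The deposited FPKM, per the table itself, are counts over 1 length per gene (1836 to 12161 bp for the members) and the library total.

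Columns were matched to samples by prefix (N control, SH knockdown) and number. Counts were tested in R 4.3.3 with edgeR 4.0.16: filterByExpr (minimum count 10), TMM, and robust glmQLFit with glmQLFTest on a design of group alone, with Benjamini-Hochberg adjustment over 15374 genes at 0.05. The fit was also run on simulated data with few changed genes and the same dispersion for every gene. Since far more genes differ here, that run checks the code and not these calls. With 3 libraries against 3, an exact permutation p for a single value cannot go below 0.1. The biological coefficient of variation was 3.13%.

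The members, the gene lists and the tests were chosen with earlier results of these data known. Named are DAZAP1, all members, all other ligand and receptor genes, the 4 smallest adjusted p of each other list and the 5 genes most like IL11; any other gene was chosen after its value was seen. A few genes that this rule names are not reported here. Alternatives used limma 3.58.1 and DESeq2 1.42.0. Sequences come from RefSeq (GRCh38.p14 promoters) and GENCODE release 29, using for each gene the coding transcript with the longest coding sequence. Overlap with other genes was read from the same release.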

Additional observations from a re-analysis of the deposited data

How the results depend on the processing

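No member changed direction under any of 17 alternatives (3 scalings, 2 filters, DESeq2, limma voom, the replicate block, 6 libraries left out in turn, 3 forms of FPKM), and IL11, IL6, LIF, CLCF1, IL6ST, IL6R, LIFR and STAT3 kept their side of the threshold in all of them. IL11 ran from -2.85 to -2.28 on the log2 scale and LIF from 0.80 to 0.87. Between 2 and 3 members were higher and 6 to 7 lower; OSMR lost its call in 5 alternatives (log2 -0.06 with log2(FPKM + 1)) and SOCS3 gained one in 6. Over the 45 named genes, 723 of 758 recomputed fold changes kept direction and call, 28 lost the call, 6 gained one and 1 reversed, that of IL11RA without NC replicate 3 (log2 -0.064); leaving out a library gave -0.064 to 0.25. Of 20 member levels, 2 moved by over 1 SD with TMM-scaled totals: STAT3 in KD and LIF in NC. Of all genes, leaving out 1 library left 3721 to 3905 higher and 3911 to 4104 lower, against 4131 and 4208 with all 6. Upper-quartile scaling gave 4800 higher and 3584 lower, library size only 4599 and 3756, DESeq2 3525 and 3784, and log2(FPKM + 1) 4203 and 3482.

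The replicate numbers are shared by the groups, but same-numbered libraries did not deviate together (correlations 0.003, -0.001 and -0.006), and 0 of 6 libraries correlated best with its own number. With the replicate number as a block, 4101 genes were higher and 4206 lower, and CTF1 lost its call, which left 0 other ligands lower. The call of CTF1 was also lost (0 other ligands lower) with upper-quartile scaling, library size only, no filter, DESeq2, voom, log2(FPKM + 1) and log2(FPKM + 0.1), and leaving out a library left 0 to 1. CTF1 was not tested under the strict filter or the mean FPKM minimum, which also left 0. No other ligand was higher (0) among genes kept by a mean FPKM minimum of 1, where EBI3 was not tested. Among mRNA stability factors, 2 were higher with upper-quartile scaling and in each form of FPKM and 1 with library size only, against 0, and 3 were lower with upper-quartile scaling. RHBDF1 lost its call (0 shedding genes lower) with upper-quartile scaling, library size only, no filter and DESeq2, and leaving out a library left 0 to 1. RC3H2 lost its call in 4 alternatives. The cause of these changes was not tested.

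Depth limits the low genes most: OSM, CNTF and IL11RA had too few counts for any but large differences to be detected. The groups are 1 construct against 1 control in 1 line, so other effects of the construct and those of less DAZAP1 cannot be told apart. Transcript levels say nothing about secreted cytokine or STAT3 phosphorylation.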
